A study of Mus musculus with 3 samples.

Results

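The Hox genes are the homeobox transcription factor genes that lie in 4 clusters of the mouse genome, named a to d. On the bead array used here, 50 of 25697 probes carried a platform gene symbol made of Hox, a cluster letter and a number. They measured 38 of 16593 genes, with 10 genes of cluster a, 10 of cluster b, 9 of cluster c and 9 of cluster d. Of these genes, 29 had 1 probe and 9 had several. The cells were HB9-GFP mouse embryonic stem cells, in which green fluorescent protein (GFP) reports on HB9, the motor neuron homeodomain factor encoded by Mnx1. All 3 populations came from embryoid bodies exposed to retinoic acid and to purmorphamine, an agonist of Hedgehog signalling, after growth of the stem cells on feeder cells, and no untreated or undifferentiated sample was analysed here. They were sorted by reporter brightness into a GFP high fraction (motor neurons, by the labels), a GFP low fraction and a GFP negative fraction, with 1 array each. The labels do not describe the reporter construct or say how many cultures stand behind an array.

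Hox proteins bind DNA through the homeodomain, often together with Pbx and Meis partners. Members with the same number in different clusters are paralogs, which descend from 1 ancestral gene. Genes with low numbers are expressed from the hindbrain backwards, and genes with higher numbers start further toward the tail, in the same order in which they lie along the chromosome. In the spinal cord the combination of Hox proteins sets which columns and pools of motor neurons form at each level, and retinoic acid switches on the low-numbered end of the clusters in differentiating embryonic stem cells. Here the genes are grouped as anterior (paralogs 1 to 4, hindbrain and neck), central (5 to 8, neck, forelimb and upper trunk) and posterior (9 to 13, trunk, hindlimb and tail).

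The signal is the background-corrected, quantile-normalized intensity of a gene's brightest probe on the log2 scale. A gene was counted as detected where the deposited detection p-value, which sets the probe against control probes of the same array, was under 0.01. Across the arrays, the number of detected probes lay between 11689 and 11736. With 1 array a group there was no replicate and no test, so no difference below has a p-value. As a gauge of technical spread, probe pairs of the same gene were compared in 2370 genes. The resulting between-probe SD of a log2 difference was 0.33 for GFP high against GFP negative, 0.26 for GFP high against GFP low and 0.29 for GFP low against GFP negative. This covers the choice of probe and leaves out what all probes of an array share, and it leaves out differences between sorts or cultures. Fewer cells that express a gene and less RNA per cell cannot be told apart in these sorted pools.

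The GFP high population carried its defining markers. Mnx1, whose reporter set the gates, gave log2 signals of 7.99 in GFP high cells, 5.30 in GFP low cells and 5.16 in GFP negative cells. Isl1, which specifies motor neurons through its homeodomain, had 12.70, 9.29 and 7.14 in GFP high, low and negative cells, and its partner Lhx3 had 9.49, 8.30 and 7.50. The acetylcholine enzyme gene Chat had 11.35, 6.74 and 5.70, and the vesicular transporter gene Slc18a3 had 10.96, 6.85 and 5.60. Of 8 motor neuron markers, 7 were detected, and Slc5a7 was not detected on any array.

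Hox genes of the anterior and central classes were detected in all 3 populations, and few posterior ones were. Of 38 Hox genes, 24 were detected on at least 1 array, or 63.2%, against 52.7% of all genes. GFP high cells had 23 detected Hox genes, GFP low cells 21 and GFP negative cells 20, against 8049, 8077 and 8143 of all genes. The order of these Hox counts depends on the limit. Hoxa6, Hoxa9, Hoxc4 and Hoxd9 had detection p-values between 0.01 and 0.05 in GFP negative cells. In GFP high and GFP low cells no Hox gene did by its brightest probe. Detected on all 3 arrays were 19 of 38 Hox genes, against 7464 of 16593 among all genes. By class, 9 of 11 anterior, 10 of 11 central and 5 of 16 posterior genes were detected somewhere. The undetected anterior genes were Hoxc4 and Hoxd1 and the undetected central gene was Hoxc5, a partner of Hoxa5 in phrenic motor neurons. No member of paralog groups 10 and 12 was detected on any array.

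**Figure D1:**
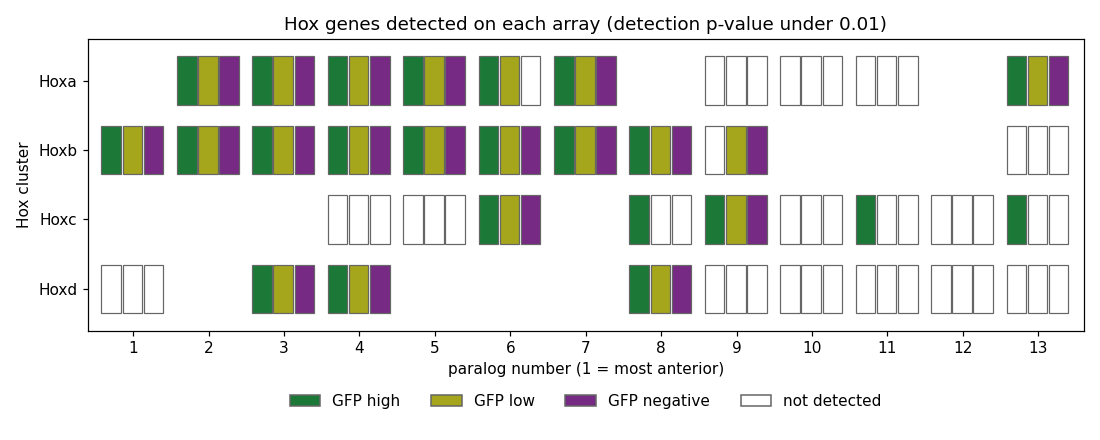
Each box is a Hox gene placed by cluster (rows) and paralog number (columns), with a bar for the GFP high, GFP low and GFP negative array, filled where the gene was detected. The filled boxes run through paralogs 2 to 7 of cluster a and 1 to 8 of cluster b, and become sparse beyond paralog 9.

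The clusters differed in how far the detected run reached. In cluster a every measured gene from Hoxa2 to Hoxa7 was detected in GFP high and GFP low cells, and Hoxa9, Hoxa10 and Hoxa11 in none of the populations. In cluster b every gene from Hoxb1 to Hoxb8 was detected on all 3 arrays, and Hoxb9 in GFP low and GFP negative cells. In cluster c only Hoxc6 and Hoxc9 were detected on all 3 arrays. In cluster d these were Hoxd3, Hoxd4 and Hoxd8, and no gene from Hoxd9 to Hoxd13 was detected on any array. Levels of different probes cannot be set against each other, so detection does not rank the genes by abundance.

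Most Hox differences between populations were under 2-fold. For GFP high against GFP negative cells, 1 of 24 Hox genes detected on either array was higher by 2-fold or more and 0 were lower by as much, against 6.99% and 9.88% of all genes so tested. Hoxc6 was the 1 gene. Their median log2 difference was 0.20, against 0.02 over all genes, and was 0.02 over all 38 Hox genes with undetected ones kept. Their median absolute log2 difference was 0.46, against 0.43 over all genes. Among the 19 Hox genes detected on all 3 arrays, 6 were higher in GFP high cells by more than the between-probe SD and 5 were lower, against 29.6% and 27.1% of all genes detected on all 3. These shares, 31.6% and 26.3%, lie near the background.

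Most Hox genes detected on all 3 arrays had their highest signal in GFP low cells. Of these 19 genes, 11 did so, or 57.9%, against 17.4% of the 7464 genes detected on all 3. In 4 of the 11, Hoxa5, Hoxb2, Hoxb4 and Hoxc6, the GFP low signal exceeded the GFP high signal by less than the between-probe SD. In 6 of them, Hoxb1, Hoxb3, Hoxb6, Hoxb7, Hoxb8 and Hoxc9, the GFP low signal lay above both other arrays by more than the between-probe SD, against 2.64% of all genes. None lay below both others in GFP low cells by that margin, against 3.7% of all genes. In GFP high cells 8 of 19 had their lowest signal, against 36.2% of all genes. Below both others in GFP high cells by more than the SD were 5 genes, Hoxa2, Hoxa7, Hoxd3, Hoxd4 and Hoxd8, against 16.8% of all genes, and none was above both others, against 16.5%. For Hoxa2 this rests on the brightest probe, since the second gave a log2 difference of -0.08 between GFP high and GFP low cells and the mean of its probes -0.21, both within the SD. In GFP negative cells 6 genes lay below both others, Hoxb1, Hoxb5, Hoxb7, Hoxb8, Hoxc6 and Hoxc9, against 18.9%, and none above both, against 18.5%. For Hoxb1 this rests on the brightest probe, since the second gave a log2 difference of 0.17 between GFP high and GFP negative cells. Without the background correction, those of Hoxb1, Hoxb8 and Hoxc9 were 0.32, 0.22 and 0.25, within the SD.

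The pairwise counts showed the same order. For GFP high against GFP low cells, 12 of 19 Hox genes were lower by more than the between-probe SD and 0 higher, against 21% and 23.3% of all genes detected on all 3 arrays. None of the 24 Hox genes detected on either array reached 2-fold in either direction, against 1.1% of all genes that were higher and 4.17% that were lower, and their median log2 difference was -0.28, against 0.03 over all genes. Over all 38 Hox genes it was -0.15. For GFP low against GFP negative cells, 9 of 19 were higher by more than the SD and 1 lower, against 22.8% and 24.3%. At least 2-fold higher were 2 of 21 Hox genes, Hoxb1 and Hoxc6, and 0 were at least 2-fold lower, against 3.37% and 2.68% of all genes. The median log2 difference of the 21 was 0.27, against -0.02 over all genes, and was 0.05 over all 38 Hox genes with undetected ones kept. The 3 comparisons share arrays, so these counts are not independent of each other.

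**Figure D2:**
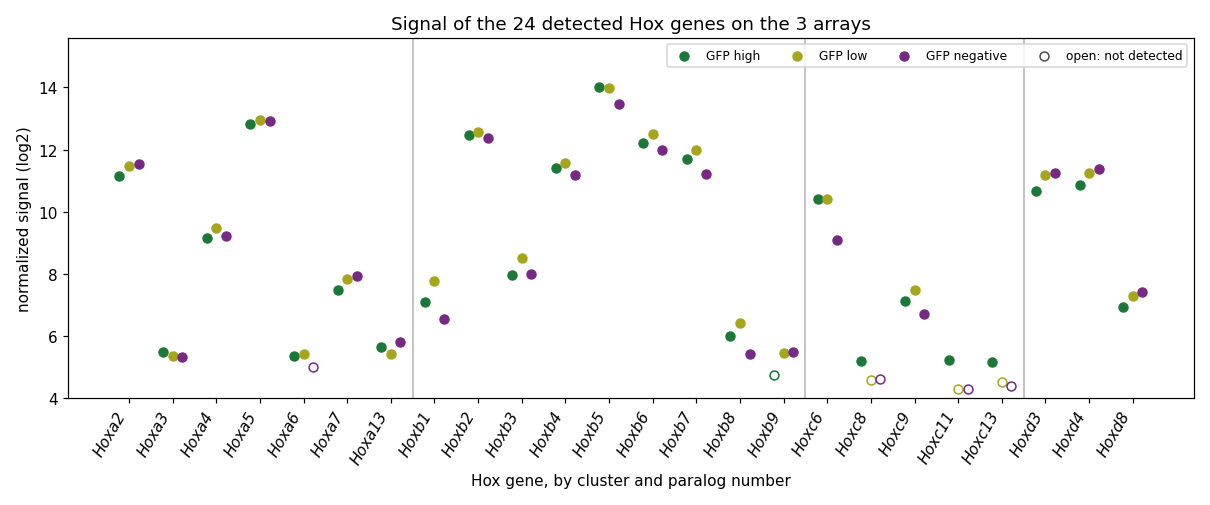
Normalized log2 signal (vertical axis) of the 24 Hox genes detected on at least 1 array, ordered by cluster and paralog number, with 1 point for the GFP high, GFP low and GFP negative array and open points where a gene was not detected. Hoxc6 shows the widest gap, with 10.40 and 10.41 in GFP high and GFP low cells against 9.08 in GFP negative cells, and levels are comparable only within a gene.

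Cluster c held the gene with the largest difference. Hoxc6, which helps to set the limb-innervating lateral motor column at forelimb level, gave log2 signals of 10.40 in GFP high cells, 10.41 in GFP low cells and 9.08 in GFP negative cells. It was 2.50-fold higher in GFP high and 2.51-fold higher in GFP low than in GFP negative cells, while GFP high and GFP low cells differed by 1.01-fold. Hoxc9, which sets thoracic motor neuron identity and represses forelimb-level Hox genes, had 7.12, 7.47 and 6.70 in GFP high, low and negative cells. It was thus highest in GFP low cells, 1.28-fold above GFP high and 1.71-fold above GFP negative cells. Each had 1 probe.

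The other detected members of cluster c lay at the detection limit. Hoxc8, a factor of forelimb motor pools, gave a log2 signal of 5.19 in GFP high cells with a detection p-value of 0.00752, and 4.57 and 4.59 in GFP low and negative cells, where it was not detected. Hoxc11, a gene of hindlimb levels, had 5.21 in GFP high cells, against 4.28 in both GFP low and GFP negative cells, where it was not detected, and its dimmer probe was not detected on any array. Hoxc13, best known from hair and nail, had 5.14 in GFP high cells, against 4.50 and 4.36 where it was not detected in GFP low and negative cells. The dimmest detected probe had 5.13 in GFP high cells, 5.13 in GFP low cells and 5.14 in GFP negative cells. Set against it, these 3 genes were at least 1.04-fold, at least 1.05-fold and at least 1.00-fold higher in the GFP high than in the GFP negative fraction, so their folds are bounds near 1.

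In cluster b, 6 of the 8 genes detected on all 3 arrays were highest in GFP low cells and lowest in GFP negative cells, and the exceptions were Hoxb3 and Hoxb5. Hoxb1, which sets rhombomere identity and facial motor neurons in the hindbrain, gave log2 signals of 7.08 in GFP high cells, 7.75 in GFP low cells and 6.54 in GFP negative cells. It was 1.46-fold higher in GFP high cells relative to GFP negative ones, 1.59-fold lower in GFP high cells relative to GFP low ones and 2.31-fold higher in GFP low than in GFP negative cells. Its second probe also peaked in GFP low cells, with 6.67, 7.38 and 6.50. Hoxb8, a factor of spinal sensory circuits, had 5.98, 6.41 and 5.42 in GFP high, low and negative cells, and was 1.47-fold higher in GFP high and 2.00-fold higher in GFP low than in GFP negative cells, with the second value a log2 difference of 0.997, just short of the 2-fold line. The sizes for Hoxb8, a dim gene, depended on the background step. Without the normexp correction its log2 differences from GFP negative cells were 0.22 in GFP high and 0.43 in GFP low cells, and that between GFP high and GFP low cells was -0.21, within the between-probe SD.

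The stretches before the start sites of Hoxb1 and Hoxb8 are shown because these genes stand at the opposite ends of the detected run of cluster b and peaked together in GFP low cells. Each is the 250 bases upstream of a RefSeq start site in build GRCm38.p6, on the plus strand, at chr11:96365508-96365757 for Hoxb1 and chr11:96281655-96281904 for Hoxb8. Capitals mark matches on either strand to TGATNNAT, the shape of a joint Pbx and Hox site, to AGGTCA, the half-site of retinoid receptors, or to TTTATNG, the shape of a Cdx site. Overlapping matches are merged.
Hoxb1: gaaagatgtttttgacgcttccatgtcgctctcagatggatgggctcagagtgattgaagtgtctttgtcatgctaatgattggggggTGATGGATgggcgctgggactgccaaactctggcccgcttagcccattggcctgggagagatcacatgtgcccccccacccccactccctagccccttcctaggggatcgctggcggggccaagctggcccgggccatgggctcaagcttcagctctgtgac
Hoxb8: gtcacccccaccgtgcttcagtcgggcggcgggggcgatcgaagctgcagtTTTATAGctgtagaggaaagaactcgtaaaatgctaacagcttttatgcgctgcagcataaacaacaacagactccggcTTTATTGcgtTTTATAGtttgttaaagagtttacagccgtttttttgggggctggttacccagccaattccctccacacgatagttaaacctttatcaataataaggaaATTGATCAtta

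The Hoxb1 stretch holds 1 match to TGATNNAT and none to the other motifs. The Hoxb8 stretch holds 1 match to TGATNNAT and 3 to TTTATNG. Over 32851 such windows of the genome table, 7.68% hold TGATNNAT, 14% AGGTCA and 9.81% TTTATNG. Of 24 Hox windows in that table, 4, 6 and 2 hold them. Matches of letters describe these windows and are not binding sites. The table matched 12 of the 24 detected Hox genes, and Hoxc6 and Hoxb5 were not among them.

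Hoxb5 and Hoxb7, central genes of cluster b, had higher signals in both GFP positive populations by more than the between-probe SD. Hoxb5, known from neural crest and gut innervation, gave log2 signals of 14.03 in GFP high cells, 13.98 in GFP low cells and 13.47 in GFP negative cells, 1.48-fold higher in GFP high and 1.43-fold higher in GFP low than in GFP negative cells. Hoxb6, a trunk paralog of Hoxc6, had 12.21, 12.51 and 11.98 in GFP high, low and negative cells. It was 1.44-fold higher in GFP low than in GFP negative cells, while the log2 difference of 0.23 between GFP high and negative cells lay within the SD. Hoxb7, its neighbour on the tail side, had 11.70, 11.97 and 11.23, and was 1.39-fold higher in GFP high and 1.67-fold higher in GFP low than in GFP negative cells. GFP negative cells were lowest for all 3 genes, and GFP low cells were highest for Hoxb6 and Hoxb7.

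Hoxb2 was nearly level, and the probes of Hoxb3 disagreed. Hoxb2, which acts in facial motor neurons downstream of Hoxb1, gave log2 signals of 12.48 in GFP high cells, 12.55 in GFP low cells and 12.38 in GFP negative cells, with every pairwise difference within the between-probe SD. Hoxb4, a gene of the hindbrain and neck border, had 11.41, 11.56 and 11.17, and was 1.31-fold higher in GFP low than in GFP negative cells. Hoxb3, active from the posterior hindbrain, had 7.95, 8.49 and 7.99 by its brightest probe, which put GFP low cells 1.42-fold above GFP negative cells. Its other probes did not show this. The second probe gave 7.46, 7.54 and 7.80 and the dimmest 6.46, 6.24 and 6.54, so the GFP low peak of Hoxb3 rests on 1 of 3 probes.

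**Figure D3:**
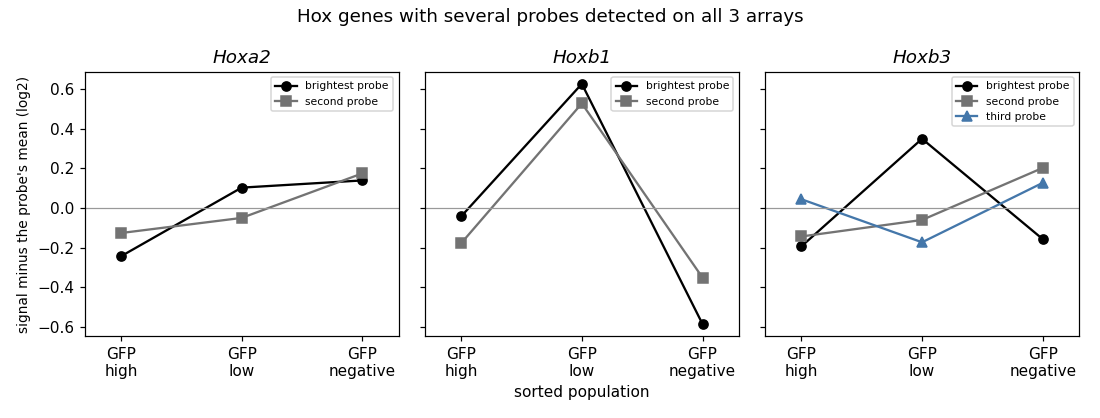
Log2 signal minus each probe's own mean (vertical axis) in GFP high, GFP low and GFP negative cells for the Hox genes with several probes detected on all 3 arrays, with 1 line a probe. The 2 probes of Hoxb1 both peak in GFP low cells, those of Hoxa2 are both lowest in GFP high cells, and the 3 probes of Hoxb3 run apart.

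Hoxb9, the trunk gene at the tail side of Hoxb8, was detected in GFP low and GFP negative cells and not in GFP high cells. Its log2 signal was 4.74 in GFP high cells, where it was not detected, against 5.44 in GFP low cells and 5.46 in GFP negative cells. It was at least 1.25-fold lower in the GFP high than in the GFP low fraction and at least 1.26-fold lower than in GFP negative cells. Hoxb13 was not detected on any array.

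All 3 detected genes of cluster d were lowest in GFP high cells. Hoxd3, which shapes the first neck vertebrae, gave log2 signals of 10.66 in GFP high cells, 11.19 in GFP low cells and 11.23 in GFP negative cells. Hoxd4, expressed from the hindbrain and neck border, had 10.84, 11.24 and 11.37. Hoxd8, of the central class, had 6.93, 7.28 and 7.40. In GFP high cells they were 1.49-fold, 1.44-fold and 1.39-fold lower than in GFP negative cells, and 1.44-fold, 1.31-fold and 1.28-fold lower than in GFP low cells. Between GFP low and negative cells none of them differed by more than the between-probe SD, with log2 differences of -0.05, -0.13 and -0.11. Each had 1 probe, and Hoxd3 and Hoxd4 overlap in the RefSeq annotation.

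The upstream stretches of Hoxd3 and Hoxd4 are shown for contrast with those of cluster b, since these neighbours were low together in GFP high cells. They lie on the plus strand of GRCm38.p6 at chr2:74711743-74711992 and chr2:74721728-74721977, and capitals mark the same motifs.
Hoxd3: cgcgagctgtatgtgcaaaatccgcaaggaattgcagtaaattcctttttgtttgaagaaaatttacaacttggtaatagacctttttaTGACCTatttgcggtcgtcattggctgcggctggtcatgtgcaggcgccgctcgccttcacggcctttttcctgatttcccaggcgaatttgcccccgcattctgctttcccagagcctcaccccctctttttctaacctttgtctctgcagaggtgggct
Hoxd4: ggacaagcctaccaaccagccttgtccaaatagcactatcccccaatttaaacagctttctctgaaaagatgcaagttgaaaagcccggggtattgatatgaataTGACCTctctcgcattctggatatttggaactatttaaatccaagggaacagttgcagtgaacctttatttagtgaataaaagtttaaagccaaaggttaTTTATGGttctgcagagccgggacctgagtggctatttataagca

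Both hold 1 match to AGGTCA, and the Hoxd4 stretch holds 1 match to TTTATNG. Their GC content is 49.2% and 40.4%, against 59.2% for Hoxb1 and 44.4% for Hoxb8. The ratio of observed to expected CpG is 0.802 for Hoxd3 and 0.294 for Hoxd4, against 0.32 for Hoxb1 and 0.974 for Hoxb8, so genes with the same shape over the arrays did not share it. Its median was 0.723 over the 12 detected Hox genes with a window, 0.505 over the 10 undetected ones with a window and 0.373 over all windows.

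In cluster a, Hoxa2 and Hoxa7 were lowest in GFP high cells, and Hoxa5 was nearly level. Hoxa2, which patterns the hindbrain and the neural crest of the second arch, gave log2 signals of 11.13 in GFP high cells, 11.48 in GFP low cells and 11.52 in GFP negative cells, and was 1.30-fold lower in GFP high cells relative to GFP negative ones. Its second probe was also lowest in GFP high cells, with 11.14, 11.22 and 11.44. Hoxa7, a trunk gene, had 7.47, 7.82 and 7.92, and was 1.37-fold lower in GFP high cells relative to GFP negative ones. Hoxa4, of the neck, had 9.16, 9.48 and 9.21, and was 1.25-fold lower in GFP high cells relative to GFP low ones. Hoxa5, which with Hoxc5 specifies phrenic motor neurons, had 12.83, 12.96 and 12.90, with every pairwise difference within the between-probe SD.

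The remaining genes of cluster a were dim. Hoxa3, needed for the thymus and glossopharyngeal region, gave log2 signals of 5.48, 5.33 and 5.32 in GFP high, low and negative cells, which lie within the between-probe SD of each other. Its second probe was detected in GFP low cells alone. Hoxa6 had 5.33 and 5.41 in GFP high and low cells, and 4.98 in GFP negative cells, where it was not detected. It was at least 1.14-fold and at least 1.21-fold higher in GFP high and GFP low than in GFP negative cells. Hoxa13, a gene of the distal limb and urogenital tract, had 5.63, 5.41 and 5.80 by 1 probe, while its other 2 probes were not detected on any array.

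**Figure D4:**
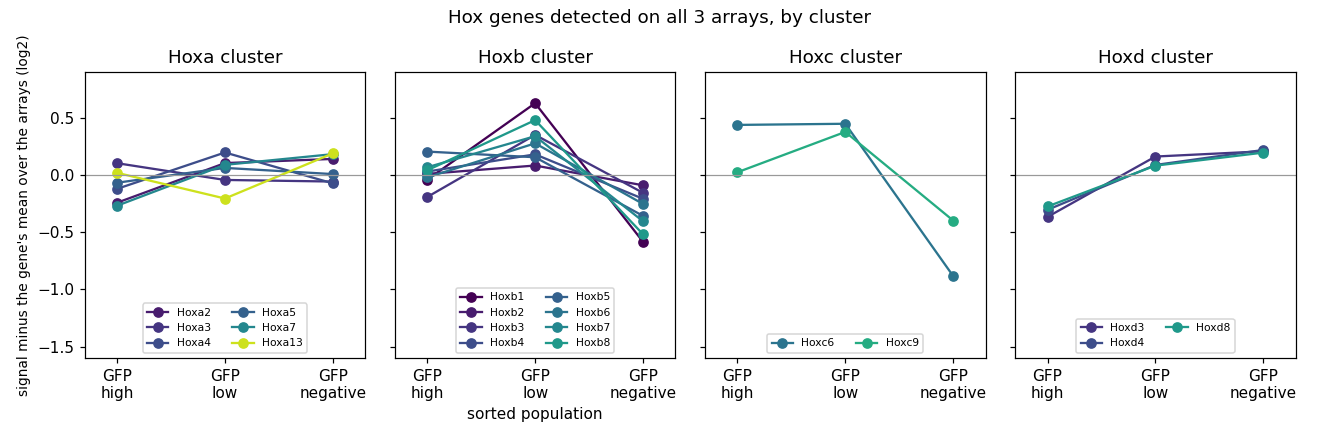
Log2 signal minus each gene's mean over the arrays (vertical axis) in GFP high, GFP low and GFP negative cells for the 19 Hox genes detected on all 3, in a panel a cluster, with darker lines for lower paralog numbers. Cluster b peaks in GFP low cells in most lines, cluster c is lowest in GFP negative cells, and cluster d is lowest in GFP high cells.

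Paralogs of the same position along the axis had different values in different clusters. In 4 of the 5 paralog groups in which clusters a and b were both detected on all 3 arrays, the gene of cluster b had the more positive log2 difference between GFP high and GFP negative cells. For paralogs 5, Hoxb5 stood 0.64 above Hoxa5 in that difference, for paralogs 7 Hoxb7 stood 0.92 above Hoxa7, for paralogs 2 Hoxb2 stood 0.48 above Hoxa2 and for paralogs 4 Hoxb4 stood 0.29 above Hoxa4. The exception was paralogs 3, where Hoxb3 differed from Hoxa3 by -0.20. The gaps of paralogs 3 and 4 lay within the between-probe SD of 1 gene, 0.33. A gap between 2 genes carries the spread of both, so the SD of 1 gene is a narrow yardstick for it. Paralogs 6 were left out because Hoxa6 was not detected in GFP negative cells. Between GFP high and GFP negative cells Hoxa6 had a log2 difference of 0.35, above the 0.23 of Hoxb6. In that difference the genes of cluster d lay below those of cluster b, with log2 gaps of -0.54 for Hoxd3 against Hoxb3, -0.76 for Hoxd4 against Hoxb4 and -1.03 for Hoxd8 against Hoxb8. For Hoxb3 this used the brightest probe, with -0.04 between GFP high and GFP negative cells, while its other probes gave -0.35 and -0.08. Between GFP high and GFP low cells the same pairs had gaps of 0.02, -0.24 and 0.08, all within the between-probe SD of 1 gene. Within clusters the log2 differences spanned -0.45 to 0.16 in cluster a, -0.04 to 0.56 in cluster b, 0.42 to 1.32 in cluster c and -0.57 to -0.47 in cluster d, over 6, 8, 2 and 3 genes.

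Paralog number was also set against the differences. Across the 19 genes, which share the arrays and are not independent, Pearson's r between paralog number and log2 difference was 0.06 for GFP high against GFP negative, 0.34 for GFP high against GFP low and -0.11 for GFP low against GFP negative. Spearman's rho was 0.11, 0.19 and 0.01. Within clusters the values differed. In the same order of comparisons, r was -0.16, 0.52 and -0.79 over the 6 genes of cluster a, and 0.39, 0.19 and 0.13 over the 8 genes of cluster b. These are descriptions over genes with no test.

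**Figure D5:**
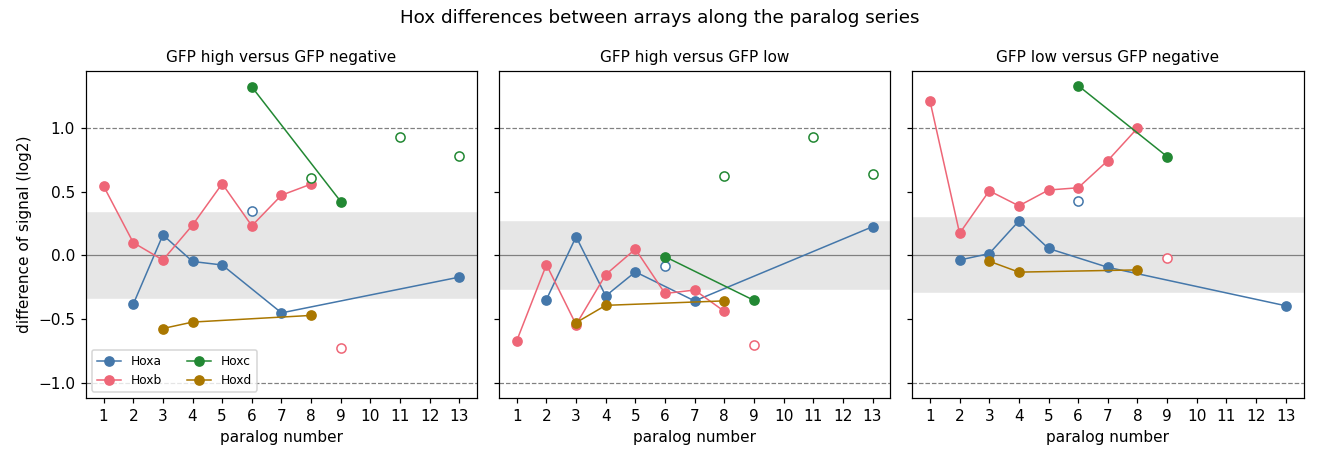
Log2 difference of signal (vertical axis) against paralog number for GFP high against GFP negative, GFP high against GFP low and GFP low against GFP negative cells, coloured by cluster. Filled points are genes detected on all 3 arrays, open points genes detected on fewer, the grey band is the between-probe SD (0.33, 0.26 and 0.29) and dashed lines mark 2-fold.

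Genes that work with Hox proteins were detected throughout. All 7 measured Pbx, Meis and Pknox genes, which encode the DNA-binding partners of Hox proteins, were detected on all 3 arrays. Among all genes, 7464 of 16593 were. Of the 7, 2 exceeded 2-fold in GFP high cells relative to GFP negative ones and 0 were lower by as much, against 6.99% and 9.88% of all genes, with a median log2 difference of 0.16. Pbx3 gave log2 signals of 9.93 in GFP high cells, 9.41 in GFP low cells and 8.34 in GFP negative cells, with a second probe whose log2 difference between GFP high and negative cells was 1.84, against 1.60 for the brightest. Meis3, which acts with Hox proteins in the hindbrain, had 7.83, 7.09 and 6.38. Meis1 and Meis2 were nearly level, with log2 differences of 0.16 and 0.31 between GFP high and negative cells. GFP high and GFP low cells differed by at least 2-fold in 0 of the 7, against 1.1% of all genes higher and 4.17% lower.

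Upstream regulators of the clusters were mostly within 2-fold. Of 8 detected genes of retinoid signalling and early axial patterning, 0 were higher by 2-fold or more in GFP high cells relative to GFP negative ones and 1 was lower. Over all genes the shares were the same 6.99% and 9.88%, so these counts lie near the background. The lower gene was Cyp26a1, which degrades retinoic acid, with a log2 signal of 5.35, 5.47 and 6.69 in GFP high, low and negative cells. Cdx1, an activator of Hox genes, was detected in GFP high cells alone. It was at least 1.42-fold higher there than in GFP negative cells and at least 1.43-fold higher than in GFP low cells. Cdx2 and Cdx4 were not detected on any array. The retinoic acid receptor gene Rarb had 10.71, 11.05 and 10.67.

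Chromatin regulators that hold Hox clusters silent or active were mostly within 2-fold. Of 13 detected Polycomb genes, 1 was 2-fold or more higher and 1 lower in GFP high cells relative to GFP negative ones, against 6.99% and 9.88% of all genes, with a median log2 difference of -0.09. These shares lie near the background. Bmi1 gave log2 signals of 7.60, 7.35 and 6.48 in GFP high, low and negative cells, and Cbx2 had 7.32, 7.96 and 8.32. The methyltransferase gene Ezh2 had 9.91, 10.65 and 10.09 by its brightest probe, and a second detected probe gave log2 differences of -0.98 between GFP high and negative cells and -0.51 between GFP low and negative cells, where the brightest gave -0.19 and 0.56. None of 7 detected trithorax and H3K27 demethylase genes differed by at least 2-fold in any comparison. Over all genes the shares ran from 1.1% to 9.88% by comparison and direction.

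Genes that Hox codes act on in motor columns and pools went both ways. Of 8 detected genes, 3 were higher by 2-fold or more in GFP high cells relative to GFP negative ones and 1 was lower, against 6.99% and 9.88% of all genes, with a median log2 difference of 0.48. Lhx1, of the lateral part of the lateral motor column and of interneurons, gave log2 signals of 12.69, 12.24 and 10.19 in GFP high, low and negative cells. Pou3f1, a marker of Hox-dependent motor pools, had 10.62, 9.54 and 8.41, and Ret, the receptor for GDNF family ligands, had 6.63, 6.33 and 5.61. Etv4, a motor pool factor, was not detected in GFP high cells and was at least 2.20-fold lower there than in GFP negative cells. Foxp1, the Hox accessory factor of limb-level motor neurons, had 8.64, 8.34 and 8.12, and Aldh1a2, which makes retinoic acid in the limb-level columns, was detected in GFP high cells alone, at least 1.13-fold above GFP negative cells.

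Most regional markers of the forebrain and midbrain were not detected. Of 13 measured forebrain and midbrain genes, 3 were detected on any array, against 52.7% of all genes. Otx2, the forebrain and midbrain homeodomain factor, gave log2 signals of 5.49 in GFP high cells, 6.99 in GFP low cells and 7.03 in GFP negative cells. En2 had another order, with 7.47, 7.70 and 7.12, and Dmbx1 was detected in GFP negative cells alone. Of 7 measured hindbrain genes, 4 were detected, which is near the 52.7% of all genes. Gbx2, of the anterior hindbrain and also of spinal interneurons, had 14.52, 13.99 and 12.14, and Irx3, also a ventral progenitor factor, had 9.93, 10.94 and 10.53.

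Genes that flank the clusters were also measured. Of 11 detected neighbours, 1 was 2-fold or more higher and 1 lower in GFP high cells relative to GFP negative ones, near the 6.99% and 9.88% of all genes. Evx1, the homeobox gene beyond Hoxa13 and a marker of V0 interneurons, gave log2 signals of 8.52, 10.48 and 9.24 in GFP high, low and negative cells, the highest in GFP low cells. Cbx5, near cluster c, had 7.64, 8.16 and 8.72, and Smug1, also near cluster c, had 9.85, 9.90 and 9.28, so these neighbours of cluster c ran in opposite directions. Ttll6, near cluster b, was detected in GFP high cells alone, at least 1.31-fold above GFP negative cells.

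Markers of other cells also differed between the populations. Of 10 detected spinal interneuron markers, 7 were at least 2-fold higher in GFP low than in GFP negative cells and 0 lower. Over all genes these shares were 3.37% and 2.68%. In GFP high cells relative to GFP low ones, 7 of the 10 were lower by 2-fold or more and 0 higher. Over all genes these shares were 4.17% and 1.1%. The summed linear signal of the markers was 3073 in GFP high cells, 8784 in GFP low cells and 6175 in GFP negative cells. Sim1 was not detected on any array. The markers did not share 1 order. En1, of V1 interneurons, had log2 signals of 9.27, 8.37 and 5.47 in GFP high, low and negative cells, and Pax2 had 8.48, 7.76 and 6.21, both highest in GFP high cells. Foxn4, of early V2 precursors, had 6.50, 9.08 and 9.67, and Dbx1, of V0 progenitors, had 8.68, 11.22 and 11.50, both highest in GFP negative cells. Endoderm and extraembryonic markers summed to 134.1, 213.0 and 2042, with Gata4, Foxa2 and Afp not detected. Mesoderm and feeder markers summed to 257.7, 599.0 and 2643, with Col1a1, Col1a2, Col3a1, Thy1, Meox1 and Tbx6 not detected. In GFP negative cells 1 gene led each of these 2 sums. Col4a1 led the first with a log2 signal of 10.32, ahead of Dab2 with 8.78. Sparc led the second with 10.92, ahead of Fbln1 with 9.22. Progenitor markers summed to 4324, 7947 and 12982 with Sox1 and Pax6 not detected, cell cycle genes to 2615, 6487 and 10594 with Ccnb2 not detected, and neuronal markers to 20444, 13381 and 5185 with Tubb3, Nefl and Snap25 not detected. Pluripotency markers summed to 601.5, 826.1 and 845.2, with Nanog and Zfp42 not detected. That sum includes Sox2, which also counts as a progenitor marker and had log2 signals of 7.85, 8.95 and 9.11. Its other members did not share 1 order. Esrrb had 7.62, 7.16 and 5.87, and Pou5f1 was detected in GFP high cells alone, while Klf4 and Dppa5a were highest in GFP negative cells. Of these sums, that of the interneuron markers was highest in GFP low cells, that of neuronal markers in GFP high cells and the others in GFP negative cells. The part of any of these cells in the Hox differences was not tested.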

How the data were processed

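Total RNA of 3 sorted populations was hybridised to an Illumina bead array, 1 array each. The authors deposited a linear intensity per probe without normalization or background subtraction, per the file headers and its lowest values of 76.7 to 79.4, and beside it a detection p-value. A second deposited table of intensity has 10 as its lowest value, and its normalization is not given in the sources used here. GenomeStudio is named per the submitters' processing notes.

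Intensities were corrected with normexp from the detection p-values, adding 16, then brought to common quantiles and log2 transformed (limma 3.58.1, R 4.3.3). The procedure was tested on simulated data. The offset draws folds of dim genes toward 1. Symbols came from the platform annotation, where 1719 probes have none listed and 0 have several. For a gene with several probes, the one with the highest mean log2 signal was used. Groups came from the sample labels. Where a gene was detected on 1 side, the fold is a lower bound against the lowest detected signal of the other array. With 1 array a group nothing was tested, and precision is limited by that number. Named were all Hox genes, and of other lists the markers given and genes with a difference of at least 2-fold. Chosen after their values were seen were Meis1, Meis2, Rarb, Ezh2, Foxp1, Smug1, Aldh1a2, Olig2, En2 and Dmbx1. The members and lists were chosen with earlier results of these data known. Alternatives varied the background step, offset, scaling, detection limit, probe choice and source table. Promoter sequences are RefSeq's for GRCm38.p6. Whether probes of paralogs share hybridisation was not tested. Tables and plots were made in Python 3.11.15.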

Additional observations from a re-analysis of the deposited data

How the results depend on the processing

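The count of Hox genes highest in GFP low cells was chosen after seeing the data. It stayed at 11 of 19, or was 12 of 19 with median centring and 12 of 20 with a detection limit of 0.05. The background step and the offset could not change the order of the arrays for a gene. They keep the ranks of probes within an array, and after quantile normalization the order depends only on those ranks. Removing the detection limit or setting undetected signals at their bound also left these 19 genes untouched. Over these settings 17.4% to 23.3% of all genes were highest in GFP low cells. With the mean of all probes, Hoxa3 took the place of Hoxb3 among the 11. The count lowest in GFP high cells was 8, or 9 with median centring. That 9 of 19, or 47.4%, compares with 42.8% of all genes. In the authors' deposited table, 3 Hox genes were higher by 2-fold or more and 1 lower in GFP high cells relative to GFP negative ones, and 2 higher and 1 lower in GFP high cells relative to GFP low ones. These were Hoxc6, in the first comparison, Hoxc8, Hoxc11 and, lower, Hoxb9. In that table Hoxc8 and Hoxc11 have its lowest value, 10, in GFP low and GFP negative cells. Hoxb9 has it in GFP high cells. The folds of these 3 genes there are thus ratios to that lowest value. The cause of the differing counts was not tested. Without the normexp step and with an offset of 50, 1 Hox gene in place of 2 was at least 2-fold higher in GFP low than in GFP negative cells, as Hoxb1 then had log2 differences of 0.77 and 0.97. It was 3 genes with median centring and in the authors' deposited table, with Hoxb8 added at 1.06 and 1.38. Over all genes, calls for GFP high against GFP negative cells numbered 602 higher and 851 lower, against 258 and 437 without the normexp step, 356 and 567 with an offset of 50 and 903 and 1187 in the authors' deposited table. For GFP high against GFP low cells they were 93 and 351, against 37 and 145, 49 and 199, and 300 and 597. For GFP low against GFP negative cells they were 287 and 228, against 105 and 77, 165 and 107, and 510 and 542. Of 576 single-gene values, 536 moved by no more than the between-probe SD, 40 moved further and 0 of a gene past 2-fold changed sign. Changing or removing the detection limit cannot alter a value, so the 72 values of each such setting were unmoved by construction. Only Hoxb1 and Hoxc6 were past 2-fold, and some smaller differences did change sign. Between GFP high and GFP low cells, Hoxb5 went from 0.05 to -0.12 with median centring, and Hoxa3 from 0.15 to -0.11 with the mean of all probes. With the mean of all probes, the difference of Hoxb3 between GFP low and GFP negative cells was -0.02, against 0.51 by the brightest probe. Signals within reach of background limit Hoxa3, Hoxa6, Hoxa13, Hoxb8, Hoxb9, Hoxc8, Hoxc11 and Hoxc13. No paired analysis was possible because each group has 1 array.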
